A study of Mus musculus with 9 samples.

Results

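The 10 genes described here are germline and meiotic genes whose promoters are known to be silenced by DNA methylation: Dazl, Ddx4, Mael, Asz1, Tex19.1, Sycp1, Sycp3, Hormad1, Stra8 and Slc25a31. They were taken by gene symbol from the 56691 genes of the deposited count tables, and all 10 were found and passed the filter on low counts that left 16903 genes. The libraries came from BVSC PSCs, mouse pluripotent stem cells in which Blimp1 drives mVenus (BV) and Stella drives CFP, and which were differentiated as embryoid bodies (EBs) and sorted by flow cytometry into BV+ PGC‐like cells (PGCLCs) and BV− cells that the study calls somatic. The PSCs carried either a DOX‐inducible lentiviral vector with the mouse Nrf1 cDNA (NRF1 OE) or the same vector without an insert (Ctrl), and all groups received DOX at 1.5 μg/mL from day 2 to day 5. There were 2 BV+ NRF1 OE, 2 BV+ Ctrl, 3 BV− NRF1 OE and 2 BV− Ctrl libraries. The PSCs were infected and selected in culture, the labels give the cell type of every sample as pluripotent stem cells, and nothing in the labels says that replicates are separate cultures, so p‐values measure only the spread between these libraries. DNA methylation was not measured in these libraries.

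In most cells, the promoters of these genes are CpG‐rich and methylated, and the PRC1.6 complex, which reaches DNA through MGA and MAX at E‐boxes and through E2F6, keeps them off as well. Primordial germ cells erase most DNA methylation as they develop, and genes such as Dazl and Ddx4 are then switched on. PSCs grown with inhibitors of MEK and GSK3, as these PSCs were before differentiation, also have low DNA methylation and transcribe many germline genes. NRF1 is a transcription factor that binds a CpG‐containing palindrome and is blocked by methylation of its site.

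Raw counts per library ranged from 13702162 to 19625460. Levels are given as CPM, counts scaled to the library total after TMM normalization, or as the deposited FPKM where genes are compared with each other. Nrf1 itself stood at 95.7 and 99.4 CPM in the BV+ libraries labelled NRF1 OE and at 91.1 and 90.4 CPM in BV+ Ctrl, a log2 fold change of 0.10 (adjusted p = 0.489). In BV− cells it stood at 119, 122 and 126 CPM against 99.1 and 105 CPM, a log2 fold change of 0.26 (adjusted p = 0.0718). The rise in Nrf1 RNA that the label NRF1 OE names thus did not pass the test in either population, and the name NRF1 OE is used below as a label. Prdm1, the Blimp1 gene that drives the BV reporter, had 57.5 and 62.8 CPM in BV+ Ctrl and 58.6 and 57.3 CPM in BV− Ctrl. Of 13 early PGC markers, 0 differed between BV+ and BV− cells at Ctrl (4 at an unadjusted p under 0.05). With NRF1 OE, 5 were lower and 2 higher in BV+ cells. Of all 16903 genes tested, 1.12% differed at Ctrl, and with NRF1 OE 651 were lower and 1674 higher. Dppa3 (Stella) and Nanos3 were among the lower markers, which goes against the label, while Itgb3 and Lin28a were the higher ones. BV+ and BV− are thus used below as names of the sorted fractions. Because the libraries are bulk RNA, fewer expressing cells and less RNA per cell cannot be told apart.

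The promoters are shown for 5 genes on which the results turn: Sycp1, Stra8, Asz1 and Dazl, which had the lowest ratios of NRF1 OE to Ctrl in BV+ cells, and Tex19.1, which differed between the sorted fractions. The sequences are those of RefSeq on GRCm38.p6, from 250 bases before to 50 bases after the annotated start, on the strand of the gene. The deposited tables use GRCm39, so these coordinates are those of the RefSeq table. Capitals mark the 8‐letter core GCGCNTGC of the NRF1 palindrome, the E‐box CACGTG and the E2F6‐type site GCGGGAA, each searched on both strands. The Sycp1 window lies at chr3:102936051-102936350 on the minus strand, and its capitals are an E‐box. The Stra8 window lies at chr6:34920698-34920997 on the plus strand and holds none of these letters. GENCODE M21 starts the Stra8 gene at 34920163, before this window, so the window describes the RefSeq start alone. The Asz1 window at chr6:18109012-18109311 (minus strand) holds 2 NRF1 cores, and the Dazl window at chr17:50293571-50293870 (minus strand) holds 1. The Tex19.1 window at chr11:121145893-121146192 (plus strand) holds 2 NRF1 cores that overlap on opposite strands.
Sycp1: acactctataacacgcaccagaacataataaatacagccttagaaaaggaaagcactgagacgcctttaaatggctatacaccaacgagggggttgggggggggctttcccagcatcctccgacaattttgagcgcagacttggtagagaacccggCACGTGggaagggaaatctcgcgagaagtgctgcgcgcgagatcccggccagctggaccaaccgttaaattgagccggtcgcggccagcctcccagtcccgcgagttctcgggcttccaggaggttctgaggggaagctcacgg
Stra8: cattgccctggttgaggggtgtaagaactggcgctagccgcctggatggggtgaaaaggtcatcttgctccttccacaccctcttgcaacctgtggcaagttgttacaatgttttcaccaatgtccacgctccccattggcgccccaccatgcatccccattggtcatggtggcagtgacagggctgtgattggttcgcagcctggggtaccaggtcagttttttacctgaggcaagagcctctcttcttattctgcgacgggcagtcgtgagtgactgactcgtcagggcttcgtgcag
Asz1: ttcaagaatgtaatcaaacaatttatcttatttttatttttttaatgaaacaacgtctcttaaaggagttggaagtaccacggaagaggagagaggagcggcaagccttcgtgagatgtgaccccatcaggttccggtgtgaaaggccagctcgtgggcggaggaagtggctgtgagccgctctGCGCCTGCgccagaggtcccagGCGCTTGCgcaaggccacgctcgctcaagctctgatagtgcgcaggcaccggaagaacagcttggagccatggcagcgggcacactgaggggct
Dazl: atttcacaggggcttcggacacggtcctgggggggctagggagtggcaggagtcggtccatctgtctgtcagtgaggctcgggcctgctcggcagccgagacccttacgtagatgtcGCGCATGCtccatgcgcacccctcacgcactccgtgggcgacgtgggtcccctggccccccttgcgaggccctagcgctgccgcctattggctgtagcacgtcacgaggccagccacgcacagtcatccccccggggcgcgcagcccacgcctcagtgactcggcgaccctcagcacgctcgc
Tex19.1: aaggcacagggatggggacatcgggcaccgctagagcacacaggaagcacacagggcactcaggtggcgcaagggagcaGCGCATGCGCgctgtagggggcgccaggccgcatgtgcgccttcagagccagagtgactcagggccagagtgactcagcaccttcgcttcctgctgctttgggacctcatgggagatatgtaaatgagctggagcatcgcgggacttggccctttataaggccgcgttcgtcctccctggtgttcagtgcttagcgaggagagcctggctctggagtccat

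CpG content differed between the promoter windows, and 6 of the 10 genes lay above the upper quartile of all windows. Ddx4 held 38 CpG in its window of 300 bases, Dazl 28, Mael and Hormad1 24 each, Slc25a31 22, Sycp1 21, Asz1 17, Tex19.1 16, Sycp3 15 and Stra8 10, against a median of 7 over 32851 windows (quartiles 3 and 20). An NRF1 core was found in Dazl, Asz1, Tex19.1, Slc25a31 and Hormad1, and in 9.61% of all windows. The 6‐letter NRF1 site TGCGCA, searched as well and present in 7.76% of all windows, was found in Dazl, Asz1, Slc25a31 and Hormad1, and it overlapped a core in Asz1, Slc25a31 and Hormad1. An E‐box was found in Ddx4, Mael, Sycp1, Sycp3, Slc25a31 and Hormad1, and in 7.15% of all windows. The E2F6‐type site, present in 4.6% of all windows, was found in Ddx4, Sycp3, Slc25a31 and Hormad1. A match describes only these letters and is not a bound site. Hormad1 has 2 annotated starts whose windows overlap and hold the same matches. The map of motif matches sets them beside each other by distance from the start.

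**Figure D1:**
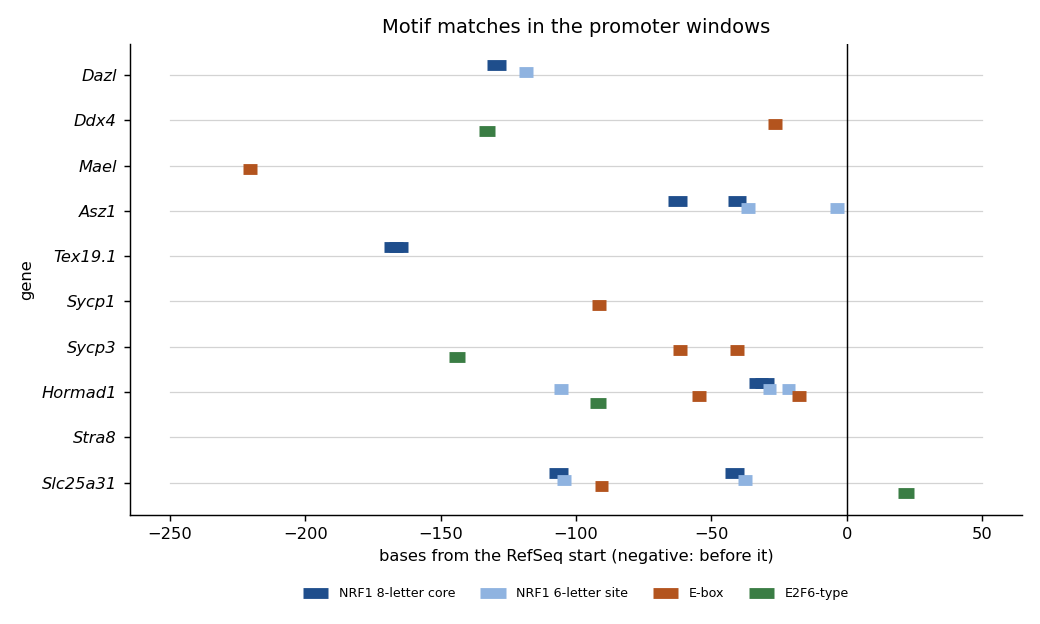
Motif matches in the promoter window of each of the 10 genes, drawn by distance in bases from the RefSeq start (x axis) with 1 row per gene; bars show the span of each match to the NRF1 core, the 6‐letter NRF1 site, the E‐box and the E2F6‐type site. Matches lie between 223 bases before and 25 bases after the start, and Stra8 has none.

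All 10 genes were transcribed in every library, with between 20 and 1725 raw counts. Per length, Tex19.1 had the highest level, with a median of 40.5 FPKM over the 9 libraries (29.8 to 53.8), and its lowest library lay above the highest of every other gene. Mael followed at a median of 21.2 FPKM (11.9 to 26.2), Dazl at 16.9 FPKM (8.46 to 25.0), Sycp3 at 12.4 FPKM (10.6 to 14.9), Hormad1 at 10.8 FPKM (7.89 to 13.5) and Slc25a31 at 8.27 FPKM (4.84 to 11.3). Ddx4 had a median of 5.42 FPKM (2.45 to 8.23), Sycp1 of 2.36 FPKM (1.01 to 3.90), Stra8 of 2.26 FPKM (0.81 to 4.87) and Asz1 of 2.20 FPKM (1.21 to 2.97). Apart from Tex19.1 and Mael, neighbours in this order overlapped. Summed over the 10 genes, the level was 175 and 248 CPM in BV+ NRF1 OE against 266 and 282 CPM in BV+ Ctrl. It was 280, 225 and 300 CPM in BV− NRF1 OE against 326 and 303 CPM in BV− Ctrl. Each NRF1 OE library lay below both Ctrl libraries of its fraction, in BV− cells by little at the nearest (300 against 303 CPM). Dazl and Tex19.1 made up the largest parts of these sums. In BV− cells their group means went opposite ways, at 54.1 against 88.4 CPM for Dazl and 98.4 against 76.5 CPM for Tex19.1. The sums were not adjusted for transcript GC content, and sums of other gene sets were not computed as a background.

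To ask which genes move with NRF1 OE in the BV+ fraction, NRF1 OE and Ctrl were compared with edgeR. Sycp1 of the synaptonemal complex and Asz1 of the piRNA machinery fell, to 0.439 and 0.503 of their Ctrl level, and 0 of the 10 genes rose. These 2 of 10 genes stand beside 8.02% of all genes tested that were called, 1.78% lower and 6.24% higher. The median log2 fold change was −0.47 over the 10 genes and 0.04 over all genes tested, and 7 of the 10 values were below 0. At the threshold of the study, which asks for a log2 fold change beyond 0.58 in size and an unadjusted p below 0.05, 4 genes were lower (Sycp1, Asz1, Dazl and Stra8), beside 7.20% of all genes. In 6 genes, both NRF1 OE libraries lay below both Ctrl libraries, which was so in 32.0% of all genes tested.

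In the BV− fraction the same comparison called Sycp1 and the meiotic entry gene Stra8, which fell to 0.515 and 0.389 of their Ctrl level, and 0 genes rose. Of all genes tested, 17.2% were called, 6.98% lower and 10.2% higher. The median log2 fold change was −0.39 over the 10 genes and 0.01 over all genes tested, with 8 values below 0. With offsets for the GC content and length of transcripts, the median over the 10 genes was −0.14 with 6 values below 0 in BV− cells, and −0.28 with 8 values below 0 in BV+ cells. The threshold of the study was passed by 4 genes, all lower (Dazl, Ddx4, Sycp1 and Stra8), beside 10.3% of all genes. In 6 genes, the 3 NRF1 OE libraries lay below both Ctrl libraries, as they did in 27.6% of all genes tested. The plot of levels by library shows all values.

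**Figure D2:**
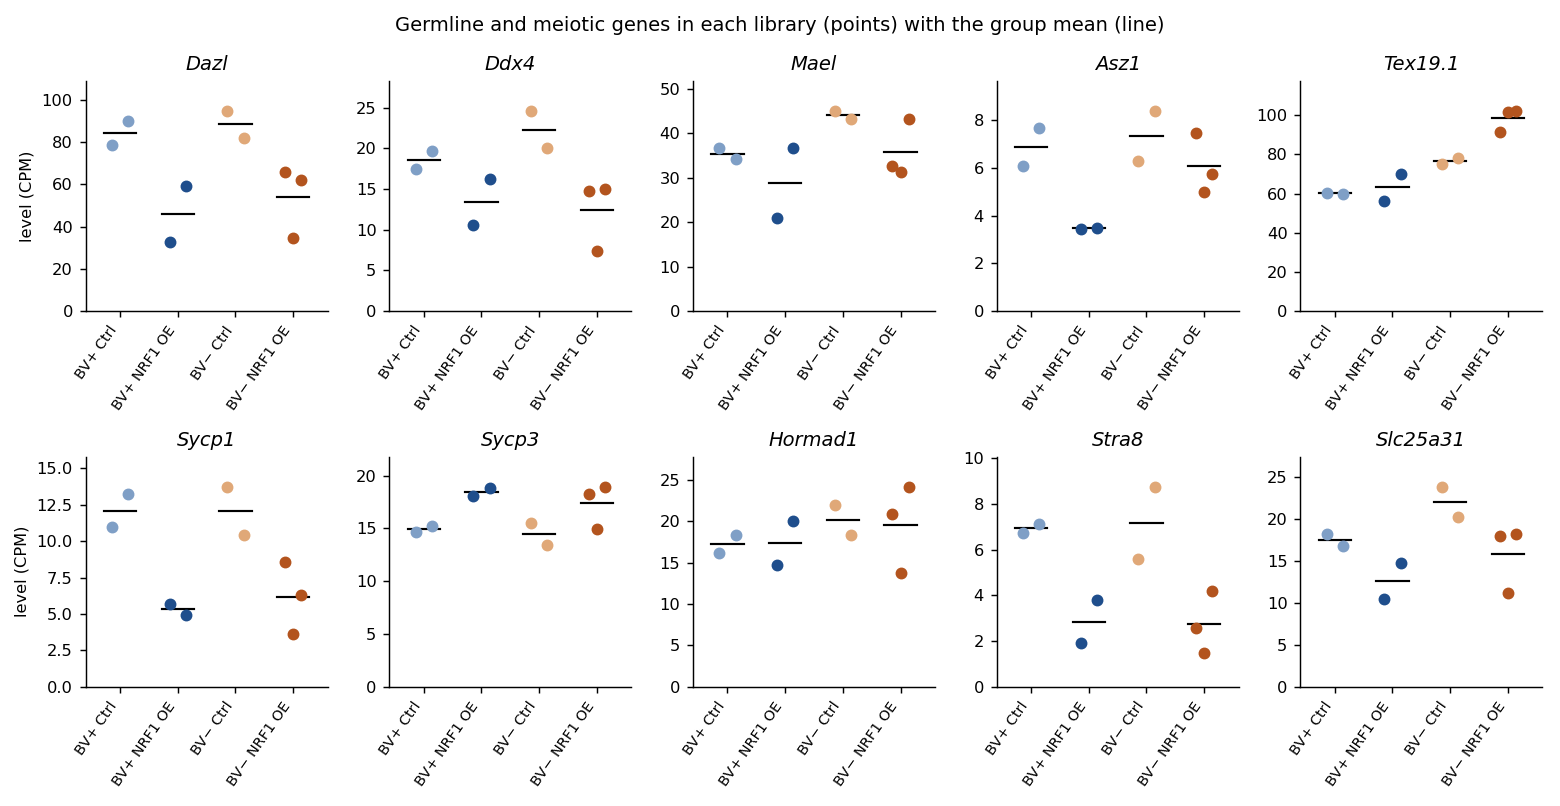
Level of each gene (y axis, CPM, from 0) in the 4 groups (x axis), with 1 point per library and a line at the group mean. The NRF1 OE points of Sycp1, Stra8, Dazl and Ddx4 lie below the Ctrl points of the same fraction, while those of Sycp3 lie at or above them in BV+ cells (18.1 and 18.8 against 14.7 and 15.2 CPM).

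Among the regulators of germ cell RNA, Dazl, an RNA‐binding protein needed for germ cell commitment, stood at 32.7 and 59.4 CPM in BV+ NRF1 OE and at 78.8 and 90.2 CPM in BV+ Ctrl. In BV− cells it stood at 65.8, 34.5 and 62.1 CPM with NRF1 OE and at 94.8 and 82.0 CPM with Ctrl. The groups did not overlap in either fraction, but the log2 fold changes of −0.88 (SE 0.298, adjusted p = 0.0816) and −0.70 (SE 0.267, adjusted p = 0.0787) did not pass the adjustment. Ddx4, the germ cell DEAD‐box helicase known as Vasa, had 10.6 and 16.3 CPM against 17.4 and 19.7 CPM in BV+ cells. In BV− cells Ddx4 had 14.8, 7.44 and 15.0 CPM against 24.6 and 20.0 CPM. All NRF1 OE values lay below the Ctrl values, and the log2 fold changes were −0.47 (SE 0.292, adjusted p = 0.275) in BV+ and −0.83 (SE 0.264, adjusted p = 0.0506) in BV− cells.

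Of the transposon defence genes, Asz1, which anchors piRNA factors at the germ cell mitochondria, had 3.45 and 3.48 CPM in BV+ NRF1 OE and 6.09 and 7.66 CPM in BV+ Ctrl. This fall of 0.99 on the log2 scale was called (SE 0.247, 95% interval −1.53 to −0.45, adjusted p = 0.0388). In BV− cells Asz1 overlapped between the groups, at 7.47, 5.01 and 5.75 CPM against 6.30 and 8.39 CPM (log2 fold change −0.27, adjusted p = 0.366). Mael, a nuage protein that represses transposons, had 20.9 and 36.7 CPM against 36.6 and 34.3 CPM in BV+ cells, where one NRF1 OE library was the lowest and the other the highest of the 4 (log2 fold change −0.30, adjusted p = 0.370). In BV− cells Mael had 32.7, 31.3 and 43.2 CPM against 45.0 and 43.3 CPM (log2 fold change −0.30, adjusted p = 0.297).

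Tex19.1, a protein of germ and pluripotent cells that limits retrotransposons, was at 56.5 and 70.2 CPM in BV+ NRF1 OE and at 60.3 and 60.0 CPM in BV+ Ctrl, an overlap with a log2 fold change of 0.07 (adjusted p = 0.707). In BV− cells its 3 NRF1 OE values of 91.3, 102 and 102 CPM lay above the Ctrl values of 75.1 and 78.0 CPM. The log2 fold change there was 0.36 (SE 0.118, adjusted p = 0.0535), which did not pass. Tex19.1 has a paralog, Tex19.2, and how reads that match both were counted is not stated, so its level is uncertain to that extent.

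Of the meiotic chromosome genes, Sycp1, the transverse filament of the synaptonemal complex, had 5.67 and 4.95 CPM in BV+ NRF1 OE and 10.9 and 13.2 CPM in BV+ Ctrl. It fell by 1.19 on the log2 scale (SE 0.305, 95% interval −1.85 to −0.52, adjusted p = 0.0406). In BV− cells it had 8.55, 3.61 and 6.28 CPM against 13.7 and 10.4 CPM and fell by 0.96 (SE 0.273, 95% interval −1.55 to −0.36, adjusted p = 0.0409). Sycp1 was the only one of the 10 genes called in both fractions. Sycp3, of the lateral element, went the other way in its values, at 18.1 and 18.8 CPM against 14.7 and 15.2 CPM in BV+ cells. Its log2 fold changes were 0.30 (SE 0.156, adjusted p = 0.195) there and 0.27 (SE 0.144, adjusted p = 0.182) in BV− cells, at 18.3, 15.0 and 18.9 CPM against 15.5 and 13.4 CPM. Exons of Sycp3 overlap Chpt1 on the opposite strand, and whether the counting used strand is not stated, so its level is uncertain. Hormad1, which coats unsynapsed chromosome axes, overlapped between the groups in both fractions. Its values were 14.7 and 20.1 CPM against 16.2 and 18.3 CPM in BV+ cells and 20.8, 13.8 and 24.2 CPM against 22.0 and 18.3 CPM in BV− cells, with log2 fold changes of 0.01 (95% interval −0.52 to 0.54), which turned to −0.029 and −0.025 with scaling by library size or upper quartile, and −0.03 (95% interval −0.51 to 0.44).

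Stra8, which starts the meiotic programme in response to retinoic acid, had 1.91 and 3.81 CPM in BV+ NRF1 OE and 6.75 and 7.13 CPM in BV+ Ctrl. The groups were apart, but with a log2 fold change of −1.28 and an SE of 0.409 the adjusted p was 0.0698. In BV− cells Stra8 had 2.59, 1.47 and 4.21 CPM against 5.61 and 8.76 CPM and fell by 1.36 on the log2 scale (SE 0.370, 95% interval −2.17 to −0.55, adjusted p = 0.0375). It had the fewest counts of the 10 genes, between 20 and 164 per library. Slc25a31, the ADP/ATP carrier of germ cell mitochondria, had 10.4 and 14.7 CPM against 18.2 and 16.7 CPM in BV+ cells, and 17.9, 11.1 and 18.2 CPM against 23.8 and 20.2 CPM in BV− cells. Its groups were apart in both, with log2 fold changes of −0.48 (SE 0.237, adjusted p = 0.183) and −0.47 (SE 0.212, adjusted p = 0.121). Slc25a31 has close paralogs, Slc25a4 and Slc25a5, and how reads that match them as well were counted is not stated.

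**Figure D3:**
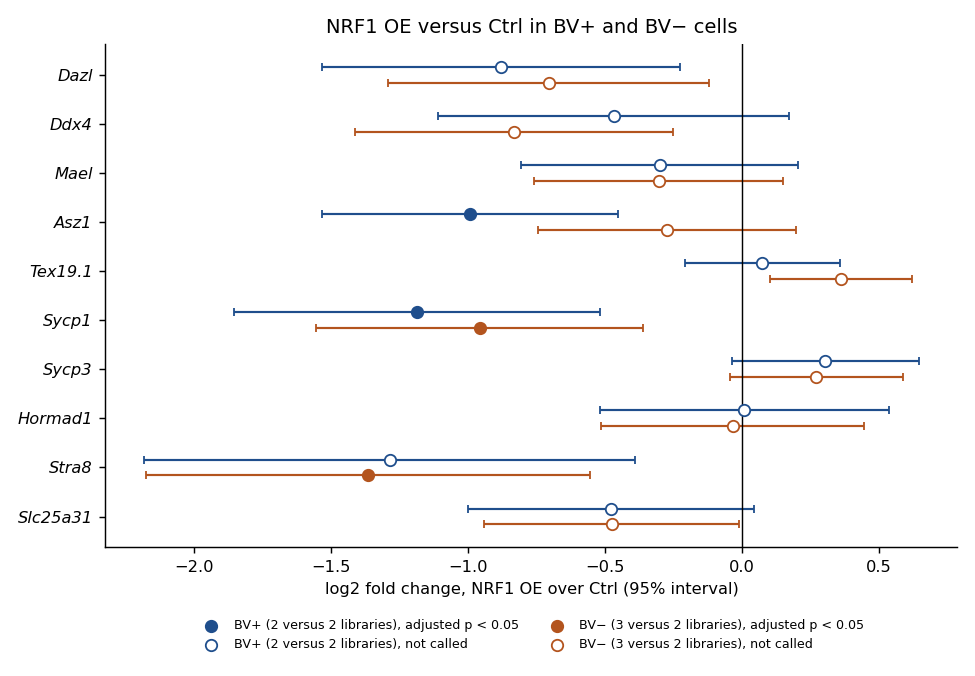
Log2 fold change of NRF1 OE over Ctrl (x axis) for each gene (y axis) in BV+ and BV− cells, with the 95% interval of the edgeR fit as bars. Filled points have an adjusted p under 0.05: Sycp1 and Asz1 in BV+ cells, and Sycp1 and Stra8 in BV− cells.

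These calls were close to the threshold. In BV+ cells, Sycp1 and Asz1 lost theirs when either BV+ NRF1 OE library or any of the 4 Ctrl libraries was left out. Each of these fits leaves 1 library in a group. Sycp1 and Asz1 also lost their calls without BV− NRF1 OE replicate 3 (adjusted p = 0.0517 and 0.0503), where 3.94% of all genes were called. With 1 library left out, their log2 fold changes stayed between −1.31 and −1.04 and between −1.14 and −0.81. In BV− cells, Sycp1 and Stra8 lost theirs without BV− NRF1 OE replicate 3 (adjusted p = 0.0697 and 0.0595), where 0.207% of all genes were called. They also lost them when any of the 4 Ctrl libraries was left out, and calls over all genes fell there too. With 1 library left out, their log2 fold changes lay between −1.26 and −0.73 and between −1.81 and −1.01. In a fit of only the BV− libraries, Sycp1 (−0.97, adjusted p = 0.0847) and Stra8 (−1.37, adjusted p = 0.0806) were not called either. That fit called 0 of 15840 genes. Without BV− NRF1 OE replicate 2, 6 genes were called lower in BV+ cells (Dazl, Ddx4 and Slc25a31 as well as Sycp1, Asz1 and Stra8). In that fit 29.4% of all genes were called, against 8.02% with all libraries. Without BV− NRF1 OE replicate 1, 5 were called in BV− cells (Dazl, Ddx4, Sycp1 and Stra8 lower, Tex19.1 higher). There 34.6% of all genes were called, against 17.2% with all libraries. The size of the uncalled changes in BV+ cells turned on which BV+ NRF1 OE library was kept. Without replicate 2, Dazl stood at −1.37, Stra8 at −1.86, Mael at −0.76, Ddx4 at −0.80 and Slc25a31 at −0.74. Without replicate 1, Dazl stood at −0.51, Stra8 at −0.86, Mael at 0.05, Ddx4 at −0.19 and Slc25a31 at −0.25. Both fits leave 1 library in the BV+ NRF1 OE group, so only the size of the change is given. In BV− cells, Slc25a31 moved to −0.31 without NRF1 OE replicate 2 and Mael to −0.47 without NRF1 OE replicate 3.

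The libraries also differed in how counts followed the GC content of transcripts, and this moved with NRF1 OE. Across 12702 genes, Spearman's rho between GC content and the deviation of a library from the mean lay between −0.602 and −0.515 in the 4 Ctrl libraries, at 0.333 and −0.005 in BV+ NRF1 OE and at 0.058, 0.695 and 0.58 in BV− NRF1 OE. Transcript GC content was 34.3% (Sycp3) to 44.9% (Mael) in 8 of the 10 genes, 50.9% in Stra8 and 52.6% in Tex19.1, against a median of 49.8% over the genes tested (quartiles 44.9% and 54.4%). With offsets for the trend over GC content and length, Sycp1 stood at −0.84 (adjusted p = 0.0163) in BV+ cells and at −0.45 (adjusted p = 0.112), no longer called, in BV− cells. Stra8 was then called in both fractions, at −1.44 (adjusted p = 0.0337) and −1.53 (adjusted p = 0.0327), and Sycp3 was called higher in both, at 0.56 (adjusted p = 0.026) and 0.71 (adjusted p = 0.0304). Over all genes, the fit with offsets called 12.3% in BV+ and 5.49% in BV− cells, against 8.02% and 17.2% without them. Asz1 in BV+ cells moved to −0.70 and was no longer called, and Dazl moved to −0.58 in BV+ and −0.24 in BV− cells. Ddx4 moved to −0.28 and −0.53, Slc25a31 to −0.28 and −0.14, and Mael to −0.20 and −0.13 in BV+ and BV− cells. Tex19.1 moved to −0.16 in BV+ cells, where its sign turned, and to 0.09 (adjusted p = 0.637) in BV− cells, where it had been 0.36.

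Whether the change with NRF1 OE differed between the fractions was tested as the difference of the 2 log2 fold changes. Of the 10 genes, 0 were called by edgeR, 0 had an unadjusted p under 0.05 and 0 were called by DESeq2, beside 0% of all genes tested in edgeR (932 at an unadjusted p under 0.05, and 22 called by DESeq2). Asz1 came nearest, with a difference of −0.72 (95% interval −1.44 to 0.0005, unadjusted p = 0.0501, adjusted p = 0.900). The differences of Tex19.1, Sycp1 and Stra8 were −0.29 (95% interval −0.67 to 0.10), −0.23 (−1.13 to 0.67) and 0.08 (−1.14 to 1.30). For Asz1, called in BV+ cells only, a difference between the fractions was thus not shown.

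The sorted fractions were then compared with each other. At Ctrl, 0 of the 10 genes differed between BV+ and BV− cells by edgeR, beside 1.12% of all genes, 1 had an unadjusted p under 0.05 and 0 were called by DESeq2. The log2 differences, BV+ over BV−, ran from −0.35 to 0.05. Tex19.1 had 60.3 and 60.0 CPM in BV+ and 75.1 and 78.0 CPM in BV− Ctrl, a log2 difference of −0.35 (95% interval −0.63 to −0.06, unadjusted p = 0.0205, adjusted p = 0.441). Sycp1, Asz1 and Stra8 had log2 differences of 0.01 (95% interval −0.63 to 0.64), −0.09 (−0.61 to 0.42) and −0.05 (−0.89 to 0.78). In 5 genes both BV+ Ctrl libraries lay below both BV− Ctrl libraries, as they did in 25.4% of all genes tested. The mesoderm gene Kdr (1.75) and the neural progenitor gene Nes (1.94) were the only genes of the marker and germline lists called at Ctrl, both higher in BV+ cells.

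With NRF1 OE, 2 of the 10 genes were lower in BV+ than in BV− cells, beside 13.8% of all genes that were called. Tex19.1 was lower by 0.64 on the log2 scale, a log2 difference of −0.64 (SE 0.119, 95% interval −0.90 to −0.37, adjusted p = 0.00473), at 56.5 and 70.2 CPM against 91.3, 102 and 102 CPM. Asz1 had a log2 difference of −0.81 (SE 0.231, 95% interval −1.32 to −0.31, adjusted p = 0.0386). These were also the 2 genes whose BV+ libraries all lay below the BV− libraries, which was so in 19.5% of all genes. Sycp1 and Stra8 had log2 differences of −0.22 (95% interval −0.86 to 0.41) and 0.02 (−0.86 to 0.91). The call of Tex19.1 was lost only without BV+ NRF1 OE replicate 1 (−0.49, adjusted p = 0.0785). That of Asz1 was kept only without BV− NRF1 OE replicate 2 or BV− Ctrl replicate 1, and its adjusted p was up to 0.176 without one of the other libraries. Markers of other lineages differed beside them, with Hand1 (4.11), Kdr (3.73), Nes (2.96) and Pax3 (2.54) higher and Ttr (−2.27) and Afp (−1.56) lower in BV+ cells, and their part in these values was not tested.

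**Figure D4:**
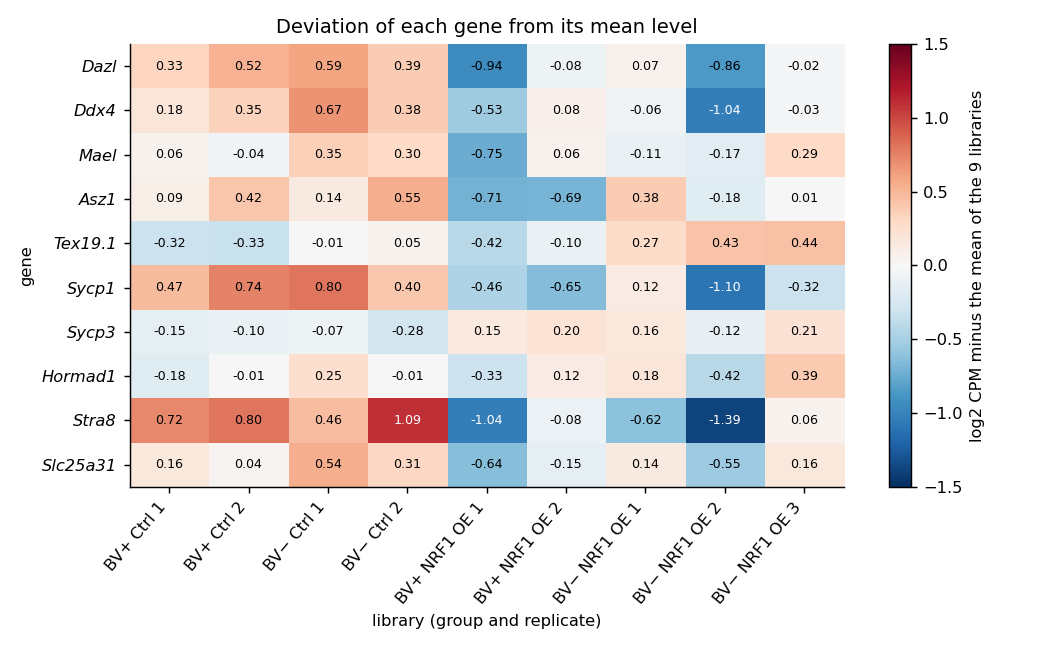
Deviation of each gene (rows) in each library (columns) from its mean over the 9 libraries, in log2 CPM with a prior count of 2; red is above and blue below the mean, and the value is printed in each cell. BV+ NRF1 OE replicate 1 and BV− NRF1 OE replicate 2 hold the lowest values of Dazl, Ddx4 and Stra8.

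Replicates of the NRF1 OE groups differed in most of the 10 genes in the same direction. BV+ NRF1 OE replicate 1 lay below replicate 2 in 9 of the 10 genes, the exception being Sycp1, and BV− NRF1 OE replicate 2 was the lowest of its 3 libraries in 9 genes, the exception being Tex19.1. These libraries also had the highest rho with GC content in their groups, at 0.333 and 0.695. BV− NRF1 OE replicate 2 had the fewest counts of all libraries (13702162). The part of GC content and depth in these counts of genes was not tested. For Asz1, the BV+ NRF1 OE libraries were nearly level, at deviations of −0.71 and −0.69 from its mean on the log2 scale. In each Ctrl group the replicates split 7 genes to 3. For none of these splits, NRF1 OE or Ctrl, was the share over all genes computed. For Stra8, the deviations from its mean were −1.04 in BV+ NRF1 OE replicate 1 and −1.39 in BV− NRF1 OE replicate 2 on the log2 scale. They were −0.08, −0.62 and 0.06 in the other NRF1 OE libraries. Across the 9 libraries, which share the group differences, depth and GC trend, Pearson's r between log2 CPM of 2 genes ranged from −0.57 to 0.94 over 45 pairs, with a median of 0.56 and 34 above 0. Dazl went most closely with Ddx4 (0.94), Slc25a31 (0.93) and Stra8 (0.90). Sycp3 had a negative r with 7 of the other genes, the lowest with Asz1 (−0.57), and Tex19.1 had its lowest with Sycp1 (−0.40).

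Some of the genes whose pattern was most like that of a member were germline genes too, and how often this holds for other genes was not computed. These values share the group differences, depth and GC trend as well. Over the 9 libraries, the 3 genes nearest to Ddx4 were Boll (r = 0.993), a relative of Dazl, the X‐linked meiotic gene Tex11 (0.991) and Trps1 (0.990). Those nearest to Dazl were Rest (0.994), Ubxn2a (0.992) and Dcaf1 (0.991), and those nearest to Sycp1 were Gm16185 (0.995), Gm13404 (0.991) and Gm43980 (0.988). Tex19.1 was nearest to Gdf3 (0.993), a TGF‐β ligand of pluripotent cells, Aurkc (0.990), a meiotic kinase, and Dcaf4 (0.989). Asz1 was nearest to Mat2a (0.975), Dpep3 (0.951) and Xlr3b (0.949), and Stra8 to Gm2981 (0.982), Sulf1 (0.981) and Cybb (0.978). Mael was nearest to Gm3555 (0.983), Jade2 (0.981) and Tdrp (0.978), Slc25a31 to Gm11543 (0.986), Ubtfl1 (0.984) and Mcmbp (0.982), and Hormad1 to Cbfa2t2-ps1 (0.975), Marchf8 (0.961) and Zfhx3 (0.959). Sycp3 had the loosest neighbours, Kctd21 (0.944), Slc10a3 (0.914) and Fn1 (0.876). Some neighbours had low levels, among them Boll with a mean of 1.67 CPM, Cybb with 0.956, Ubtfl1 with 0.407 and Gm11543 with 0.366 CPM.

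Other genes of the germline programme were read from lists of the same kind. Their values come from the fit without offsets for GC content and length. Of 19 piRNA and nuage genes tested, 1 fell in BV+ cells with NRF1 OE and 0 rose (median log2 fold change −0.17), and the one that fell was Btbd18, an activator of piRNA loci (−1.23, adjusted p = 0.0353). In BV− cells 2 fell and 1 rose (median −0.07), with Mybl1, the transcription factor of pachytene piRNA genes, at −0.91, Tdrkh at −0.69 and Gpat2 at 0.44. Of 30 meiotic chromosome and recombination genes tested, 1 fell in BV+ cells, Hormad2 (−0.88, adjusted p = 0.0217), and 0 rose, while 26 of the 30 values were below 0 (median −0.39). In BV− cells 6 of these 30 fell and 0 rose (median −0.26), led by Sycp2 (−1.25), Meioc (−1.15) and Ankrd31 (−1.05). The median of all genes tested was 0.04 and 0.01, and the shares called are those given for the 10 genes.

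Of 22 other germline genes tested, 4 fell and 2 rose in BV+ cells (median −0.24). Tex13b (−1.59), Dpep3 (−1.01) and D1Pas1 (−0.96) led those that fell, and Zbtb16 (1.50) and Dppa3 (0.64) rose. In BV− cells 2 fell and 4 rose (median −0.13), with Tex13b (−1.16) and D1Pas1 (−0.82) lower and Rhox9 (1.13), Nanos3 (1.02) and Dppa3 (0.84) leading those higher. Germline genes thus moved in both directions, and those that rose included the early PGC genes Dppa3 and Nanos3. With NRF1 OE, BV+ cells were lower than BV− cells in 5 of the 19 piRNA and nuage genes, led by Gtsf1 (−0.67), in 3 of the 30 meiotic genes, led by Hormad2 (−0.74), and in 10 of the 22 other germline genes, led by Tex101 (−1.25). They were higher in 2, 0 and 1 genes of these lists, with Tdrkh (1.46) and Zbtb16 (2.54) the furthest up. Of all 16903 genes tested, 651 were called lower and 1674 higher in this comparison.

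**Figure D5:**
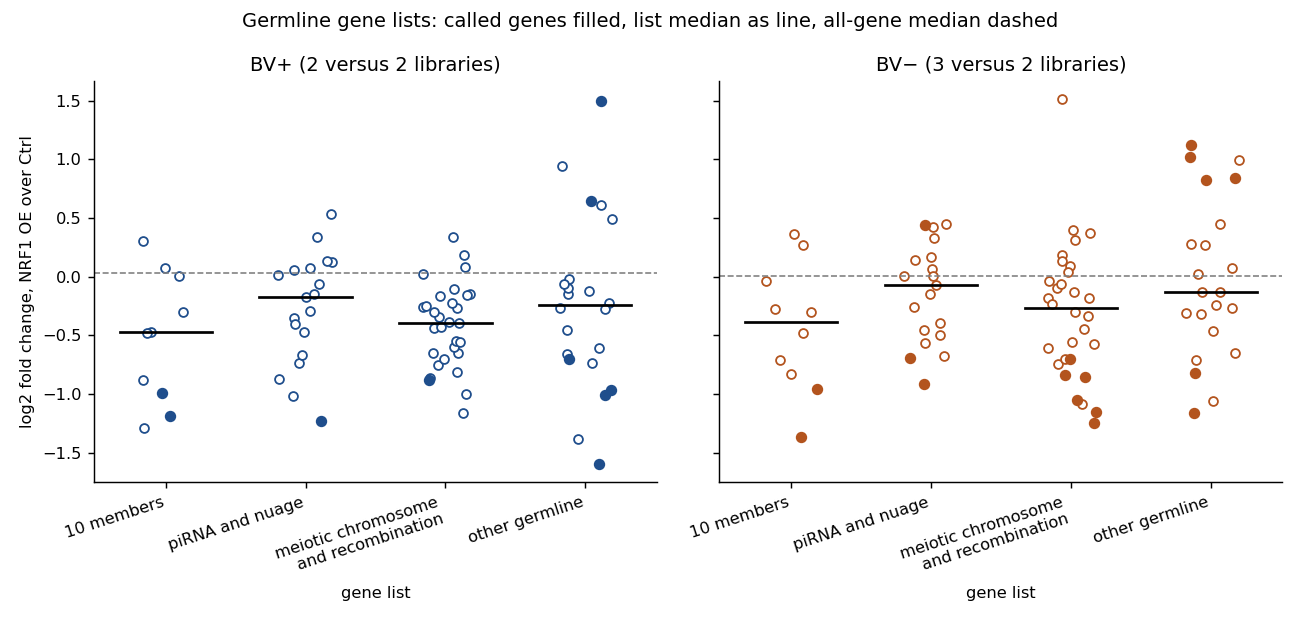
Log2 fold change of NRF1 OE over Ctrl (y axis) of the genes tested in 4 germline lists (x axis) in BV+ (left) and BV− cells (right); filled points have an adjusted p under 0.05, the solid line is the median of the list and the dashed line that of all genes tested. The list medians lie between −0.47 and −0.17 in BV+ cells and between −0.39 and −0.07 in BV− cells. Values come from the fit without offsets for GC content and length.

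The known repressors of these promoters were measured in the same libraries. Values in this paragraph come from the fit without offsets for GC content and length. Of 14 genes of the PRC1.6 complex, edgeR called 0 in BV+ cells with NRF1 OE, with 4 at an unadjusted p under 0.05. In BV− cells 4 fell, led by Mga (−0.88), Rybp (−0.73) and Rnf2 (−0.62), and 3 rose, Ring1 (0.68), L3mbtl2 (0.37) and Wdr5 (0.33). Over all genes tested, 8.02% were called in BV+ cells and 17.2% in BV− cells, and with the offsets 12.3% and 5.49%. Of 10 genes of DNA methylation and demethylation, Zfp57, which guards imprinted methylation, fell in BV+ cells (−0.73, adjusted p = 0.0296) and 0 rose. There 4 of the 10 had an unadjusted p under 0.05, and at the threshold of the study 3 were lower and 0 higher. Tet1 stood at 244 and 389 CPM in BV+ NRF1 OE against 586 and 613 CPM in BV+ Ctrl. Tet2 stood at 19.01 and 24.05 CPM against 40.76 and 47.68 CPM, and neither was called in BV+ cells. In BV− cells the demethylating enzymes Tet2 (−1.28) and Tet1 (−0.96) fell with Zfp57 (−0.59), and Trim28 rose (0.37). The methyltransferase genes Dnmt1, Dnmt3a and Dnmt3b and the cofactor gene Uhrf1 were not called in either fraction. Of 9 genes of the retinoic acid response tested, 0 were called in BV+ cells (3 at an unadjusted p under 0.05), and Crabp2 (1.78) and Crabp1 (0.48), which bind retinoic acid in the cytosol, rose in BV− cells, where Stra8 was lower.

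Markers of other cell states moved with NRF1 OE as well, beside the 8.02% of all genes called in BV+ and 17.2% in BV− cells. The values of these markers were not adjusted for GC content and length. Summed over 12 naive pluripotency markers, the level was 2058 and 2287 CPM in BV+ NRF1 OE against 2492 and 2373 CPM in BV+ Ctrl, with Zfp42 (−0.67) and Klf4 (−0.67) called lower, 0 called higher and 0 markers at 0 counts. In BV− cells this sum was 2864, 2695 and 2853 CPM against 2587 and 2673 CPM, with 3 markers lower, among them Tbx3 (−0.84), and 2 higher. The higher sum there did not stand for most of the markers, of which 7 of 12 had log2 fold changes below 0 (median −0.15). Dppa5a alone stood at 1137, 1059 and 1141 CPM against 876 and 972 CPM. Neuroectoderm markers summed to 167 and 114 CPM in BV+ NRF1 OE against 66.9 and 73.7 CPM in BV+ Ctrl, with Nes called at 3.03 times its Ctrl level as 1 of 5 tested markers, and to 38.0, 49.6 and 44.7 CPM against 30.1 and 39.6 CPM in BV− cells. Mesoderm markers summed to 48.6 and 36.0 CPM against 29.8 and 34.3 CPM in BV+ cells and to 17.6, 20.5 and 17.5 CPM against 27.2 and 26.1 CPM in BV− cells, with Kdr (1.49) higher and Pdgfra (−1.17) lower in BV+ cells. Endoderm markers summed to 36.7 to 77.4 CPM over all libraries, with 0 of 7 called in BV+ cells and Gata6 (−1.08) and Dab2 (−0.71) lower in BV− cells. Formative and primed markers had 0 of 7 called in either fraction, with 4 and 3 at an unadjusted p under 0.05. The part of these cell states in the levels of the 10 genes was not tested.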

How the data were processed

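RNA‐seq of 9 libraries in 4 groups was taken from gene tables deposited by the authors, with groups and replicate numbers taken from the sample titles. Per the study's methods and processing notes, poly(A) RNA was sequenced as paired ends, and the trimmed reads were mapped to GRCm39 with HISAT2 2.0.1 and counted with HTSeq 0.6.1. The deposited tables hold a raw count per gene, not normalized, and FPKM that the authors derived from these counts, used here only to compare levels between genes. Strand use in counting is not given in the sources used here.

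Counts were fitted in R 4.3.3 with edgeR 4.0.16 (TMM, filterByExpr, quasi‐likelihood F test, two‐sided, a term for each of the 4 groups, all 9 libraries) and adjusted by Benjamini‐Hochberg over the 16903 genes tested, and called means an adjusted p under 0.05. Intervals are 95% intervals of the log2 fold change from this fit. CPM were scaled by TMM, with a prior count of 2 where log2 was taken. Procedures were tested on simulated data.

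The 10 genes and the other gene lists were chosen with earlier results of these data known. From each other list, up to 3 called genes in each direction with the largest absolute log2 fold change were named, and for each of the 10 genes the 3 outside genes with the highest Pearson's r over the libraries. In the comparisons of the fractions and in the difference of effects, values are given for genes called in at least 1 comparison. Promoters came from a RefSeq table on GRCm38.p6 (10 of 10 genes found), and transcript GC content and overlaps from GENCODE M21 on GRCm38, because the tables give no sequence. Pairs of replicates differed by 2.8 to 30.9 in chi‐square per gene, so that no library was counted as a copy of another. Same‐numbered libraries did not deviate together (r between −0.243 and 0.246), so numbers were not taken as pairs. Alternatives were DESeq2 1.42.0, other normalizations and filters, offsets for GC content and length, the replicate number as a term, a fit of only 2 groups and leaving out each library. Depth limits Stra8 most, with 20 counts in its lowest library. ChIP‐seq data were not analysed here.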

Additional observations from a re-analysis of the deposited data

How the results depend on the processing

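The counts of called genes changed with the test, the filter on low counts, the libraries in the fit and the replicate block. Against 2 called genes in BV+ cells with NRF1 OE, DESeq2's Wald test, no filter on low counts and a fit of only the 2 groups compared gave 4 each, and leaving out 1 library gave 0 to 6. Against 2 in BV− cells, DESeq2's Wald test and no filter gave 5 each, a fit of only the 2 groups gave 0, and leaving out 1 library gave 0 to 5. Between the fractions at Ctrl, a fit of only the 2 groups gave 2 called genes where the main one gave 0. With NRF1 OE, the filter of 10 counts on average and the fit of only the 2 groups gave 1 each in place of 2, and leaving out 1 library gave 0 to 2. The replicate numbers do not pair the libraries. With the replicate number as a block, 0 genes were called in BV+ cells, 0 in BV− cells and 1 between the fractions with NRF1 OE, and with GC and length offsets and the block 0 in BV− cells. The log2 fold changes behind the lost calls were −1.22 for Sycp1 (adjusted p = 0.0881) and −0.99 for Asz1 (adjusted p = 0.101) in BV+ cells, and −1.01 for Sycp1 (adjusted p = 0.108) and −1.75 for Stra8 (adjusted p = 0.107) in BV− cells with the block alone. A crossed pairing of the 4 Ctrl libraries, chosen after seeing the data, called 3 of the 10 genes, and the cause of these shifts was not tested. All fits with no filter tested 33142 genes, against 16903 in the main fit. Over all genes tested, the 1355 called in BV+ cells (8.02%) became 1951 with DESeq2's Wald test (11.5%) and 3440 with no filter (10.4%). They became 3 with the replicate block, 2049 with the offsets (12.3%), 895 with offsets and block and 4371 in a fit of only the 2 groups (26.8%). The 2910 in BV− cells (17.2%) became 3792 with DESeq2's Wald test (22.4%) and 4392 with no filter (13.3%). They became 0 with the replicate block, 914 with the offsets (5.49%), 2 with offsets and block and 0 in a fit of only the 2 groups. Between the fractions, the 190 at Ctrl became 300 with DESeq2's Wald test, 529 with no filter, 121 with the replicate block, 286 with the offsets, 890 in a fit of only the 2 groups and 2079 with the crossed pairing, and the 2325 with NRF1 OE became 1064 with the block, 4093 with the offsets and 1260 in a fit of only the 2 groups. Leaving out 1 library gave 0 to 4957, 0 to 5847, 31 to 484 and 786 to 3182 in this order, and the difference of effects, with 0 called, had 22 with DESeq2's Wald test, 108 with no filter and 1 with offsets and block. Signs turned only in values that were not called. With GC and length offsets, without and with the replicate block, Tex19.1 in BV+ cells moved to −0.16 and −0.16, and in BV− cells Asz1 moved to 0.17 and 0.25 and Hormad1 to 0.39 and 0.22. Hormad1 in BV+ cells was at −0.029 with library size alone, −0.025 with upper‐quartile factors, −0.016 with no filter and −0.037 in a fit of only the 2 groups. Between the fractions at Ctrl, Sycp1 was at −0.011 with DESeq2's size factors, −0.014 with its Wald test and −0.015 with the filter of 10 counts, and Stra8 at 0.014 with the offsets and replicate block. With NRF1 OE, Stra8 was at −0.004 with upper‐quartile factors. Leaving out each library moved the log2 fold change in BV+ cells between −0.76 and 0.053 for Mael, −0.089 and 0.23 for Tex19.1 and −0.23 and 0.22 for Hormad1, and in BV− cells between −0.22 and 0.13 for Hormad1. Between the fractions at Ctrl it moved Sycp1 between −0.21 and 0.21, Asz1 between −0.28 and 0.10 and Stra8 between −0.34 and 0.28. With NRF1 OE it moved Sycp1 between −0.44 and 0.084 and Stra8 between −0.56 and 0.48, and the difference of effects between −0.48 and 0.077 for Sycp1 and −0.50 and 0.51 for Stra8.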
